A study of Mus musculus with 6 samples.

Results

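The genes described are the nuclear genes for subunits of the 5 respiratory chain complexes: symbols beginning with Ndufa, Ndufb, Ndufc, Ndufs or Ndufv for complex I, Sdha to Sdhd for complex II, Uqcr genes and Cyc1 for complex III, Cox4 to Cox8 genes for complex IV, and Atp5 genes for complex V. They were chosen by symbol and not by any measured value, without assembly factors and without pseudogenes. Of the 23462 genes named on the array, 85 met this rule, read by 107 probes: 38 for complex I, 4 for complex II, 9 for complex III, 17 for complex IV and 17 for complex V. Another 4 genes of the reference that met the rule, Cox5b, Ndufb1, Ndufb4b and Ndufb4c, had no probe matched to them. None of the 13 subunits that mitochondrial DNA encodes was matched to a probe.

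Acinar cells, which make the digestive enzymes of the pancreas, were isolated from C57BL/6 mice of 2 genotypes, and their RNA was read on 6 one-colour arrays. The KC samples (n = 3) carried Ptf1aCre and an allele that Cre switches on, and the KCS samples (n = 3) carried both of these plus Setdb1flox/flox. Ptf1aCre is a recombinase driven from a pancreatic gene and acts in cells of the pancreatic lineage. Both groups share it and the allele it switches on, so neither is a wild-type control. Setdb1, the gene with flox sites in KCS, encodes an enzyme that methylates lysine 9 of histone H3. Ages and the number of animals are not given in the sources used here, so a p-value measures the spread between these samples, which may be technical.

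Electrons from NADH enter the chain at complex I, and those from succinate enter at complex II. Complexes I, III and IV pump protons across the inner mitochondrial membrane as electrons pass to oxygen, and complex V, the ATP synthase, lets the protons back and makes ATP. Acinar cells hold many mitochondria and use ATP for protein synthesis, calcium pumping and secretion.

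Values are log2 signals after each array was scaled to its own 75th percentile, called scaled log2 signals here, so that 0 stands for the 75th percentile of the array, and a difference of 1 is a factor of 2. Where 3 values follow each other, they are those of replicates 1 to 3 of a group. A gene was called when the limma test gave an adjusted p below 0.05 over the 27102 features tested, where a feature is a named gene or a probe with no gene name, well above background on at least 3 of 6 arrays. Of the 85 genes, 82 passed this filter. The other 3 were isoforms of complex IV: Cox7b2 was well above background on 1 array, Cox8b on 2 and Cox8c on 0, and they were not tested.

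Most subunit genes were lower in KCS than in KC on this scale. Of the 82 genes, 55 (67.1%) fell and 1, Ndufa4l2, rose, against 34.4% of all features that fell and 25.9% that rose. The median log2 fold change over the 82 genes was -0.72, and over all features it was -0.19. Over the 19121 features above background on all 6 arrays, which hold 81 of the 82 genes, it was -0.36. Ranked from the most negative change, the subunit genes had a median percentile of 39.6 among those features and of 36.1 among all features. In 66 genes every KCS sample was below every KC sample and in 2 genes above, a pattern seen in 38.4% and 29.8% of all features. By complex, 8 of 9 genes fell in complex III, 28 of 38 in complex I, 12 of 17 in complex V, 6 of 14 in complex IV and 1 of 4 in complex II. Without KCS replicate 3, whose acinar enzyme signal stood apart from that of the other KCS samples, 50 of the 82 fell and 1 rose, against 31.7% and 24.1% of all features.

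**Figure D1:**
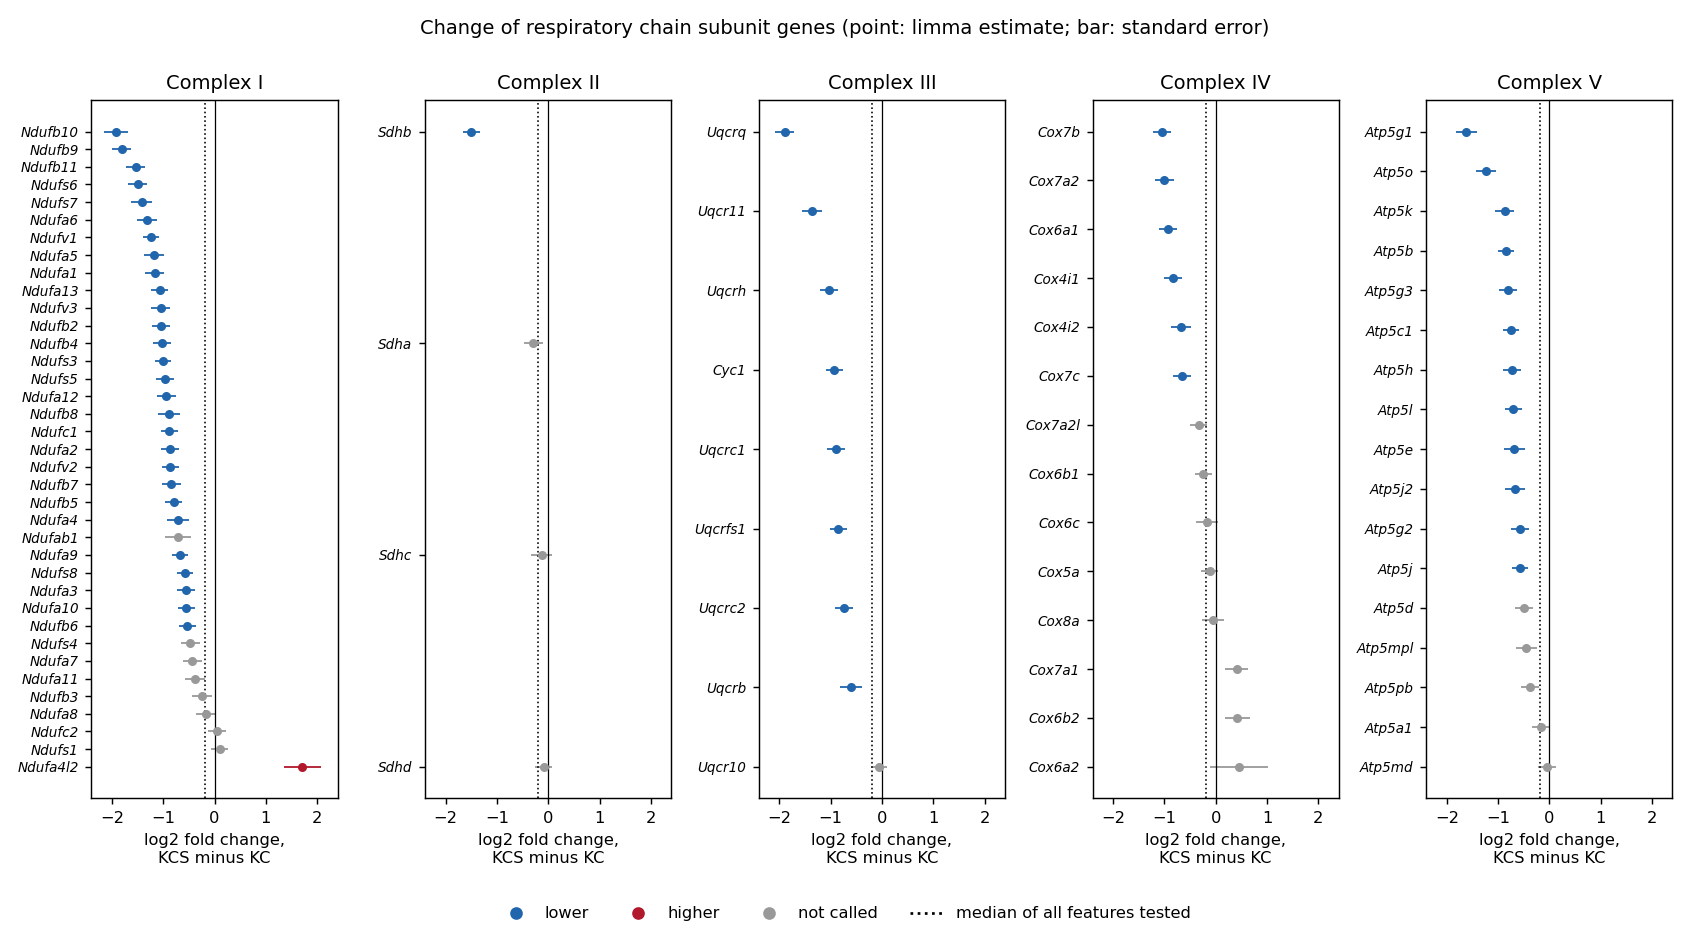
Log2 fold change (KCS minus KC, x axis) of tested subunit genes, by complex, with the limma estimate as a point and its standard error as a bar (n = 3 per group); colour gives the call at an adjusted p below 0.05, and the dotted line is the median of all features, -0.19. Complexes I, III and V lie mostly left of that line. In complex II Sdhb at -1.50 lies far left of the line and Sdha at -0.29 just left of it. Ndufa4l2 at 1.71 is the only gene called higher.

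The size and the count of these falls depended on how the arrays were brought to a common scale. The 75th percentile of the signal lay between 61.2 and 68.6 scanner units in KC and between 347.0 and 423.1 in KCS, and the brightest 100 probes held 34.4% to 37.4% of the signal in KC and 13.4% to 14.6% in KCS. Quantile normalization gave 34 subunit genes lower and 7 higher (all features 29.3% and 29.2%), and centring on the array median gave 27 lower and 3 higher (26.0% and 33.8%). With normexp background correction, 20 fell and 17 rose (55.0% and 24.9%), the median of the subunit genes was -0.08 against -0.61 for all features, and only 11 of 82 genes lay below the median of all features, against 67 on the first scale. When arrays were scaled to spiked-in control RNA, all 82 genes rose, with a median of 2.07, as did 86.3% of all features (3.05% fell), whose median was 2.60. Of all features called, 42.9% were higher on the first scale, 49.9% with quantile normalization, 56.5% with median centring, 31.2% with normexp and 96.6% with spike-in scaling. Of the 82 genes, 67 also lay below that median with median centring and with spike-in scaling, and 56 with quantile normalization. The first scale, median centring and spike-in scaling differ only by a shift of each whole array, so they rank the changes alike. A statement that most subunit genes were lower relative to other genes therefore holds on these scales except with normexp, where it reverses. The sign of their own change depended on the scale.

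**Figure D2:**
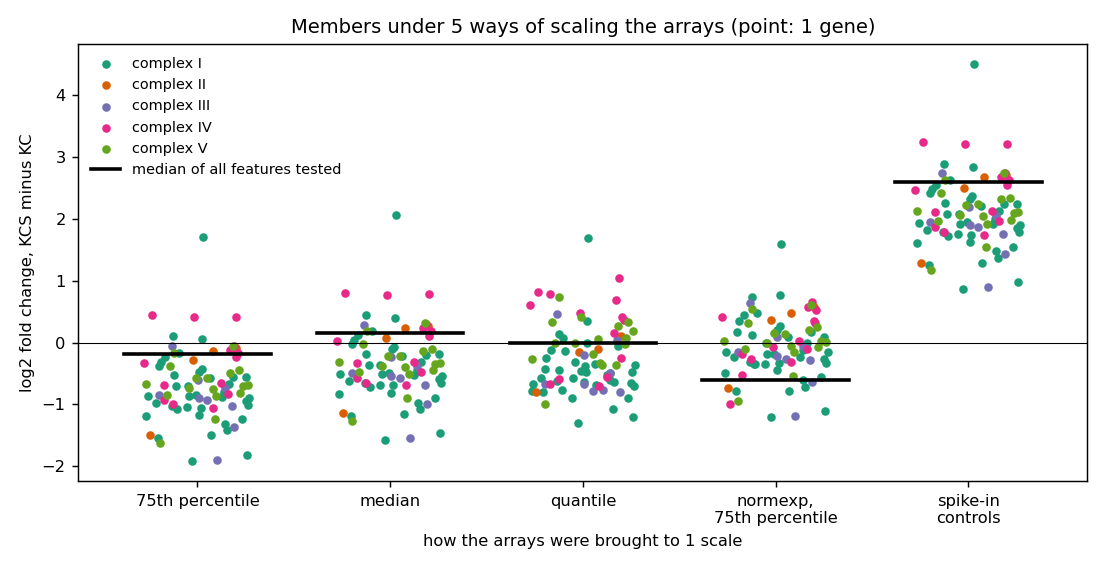
Log2 fold change (KCS minus KC, y axis) of the 82 subunit genes under 5 ways of scaling the arrays (x axis), 1 point a gene, coloured by complex, with the median of all features as a black bar. The cloud of points shifts relative to 0, and relative to the bar it shifts with quantile normalization and normexp. The bar is at -0.19, 0.16, -0.01, -0.61 and 2.60 from left to right.

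A core of 16 genes was called lower under each of the 4 scalings other than the spike-in one, a set found after the values were seen. It held 12 complex I genes (Ndufb10, Ndufb9, Ndufb11, Ndufs6, Ndufs7, Ndufa6, Ndufv1, Ndufa5, Ndufa1, Ndufv3, Ndufb2 and Ndufs3), Sdhb of complex II, Uqcrq and Uqcr11 of complex III, Atp5g1 of complex V and no gene of complex IV. Under spike-in scaling these 16 rose by 0.87 to 1.78, less than the median of all features. Ndufa4l2 was the only gene called higher under all 4. None of the 17 genes that normexp called higher was among the 55 called lower on the first scale. With quantile normalization Cox6a1, 1 of these 55, was called higher (0.78, limma adjusted p = 0.00701).

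The promoters of these genes are a known meeting point of a few transcription factors, among them NRF1, GABPA, YY1 and ESRRA, which bind near the start of many mitochondrial genes. RefSeq windows of 300 bases (250 before and 50 after the start, GRCm38.p6) were found for 68 of the 85 genes, 73 windows in all, and letters were searched on both strands. The NRF1 letters GCGCATGC were in 13.7% of these windows against 2.71% of all 32851, the GABPA letters CCGGAAG in 23.3% against 8.86%, the YY1 letters AAGATGGCG in 9.59% against 1.40%, and the ESRRA letters TCAAGGTCA in 2.74% against 0.423%. These 4 strings do not contain one another, and a match is a description of letters, not of a bound site. In this series the median log2 fold change of genes with and without the NRF1 letters was -0.88 over 10 genes (8 called lower) and -0.74 over 56 genes (39 called lower). For the other motifs the order was the opposite: -0.70 with and -0.81 without the GABPA letters (17 and 49 genes), -0.67 and -0.80 for YY1 (7 and 59), and -0.45 and -0.78 for ESRRA (2 and 64). These medians are descriptions with no test.

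The 250 bases upstream of the start are shown for the gene with the largest called fall in its complex among those with the NRF1 letters there, to let the position of the letters be seen; complex III had none wholly within the 250 bases, although Uqcr11 and Uqcrc1 hold the letters within the 300-base window. Capitals mark NRF1 letters on either strand (GCATGCGC is the same string read from the other strand, and GCGCATGCGC holds both), and the second capital run of Cox6a1 marks GABPA letters. The windows are Ndufa6 (complex I) at chr15:82354292-82354541, minus strand, Sdhb (II) at chr4:140961021-140961270, plus strand, Cox6a1 (IV) at chr5:115348959-115349208, minus strand, and Atp5k (V) at chr5:108434400-108434649, minus strand, each written 5′ to 3′ along the gene.
Ndufa6: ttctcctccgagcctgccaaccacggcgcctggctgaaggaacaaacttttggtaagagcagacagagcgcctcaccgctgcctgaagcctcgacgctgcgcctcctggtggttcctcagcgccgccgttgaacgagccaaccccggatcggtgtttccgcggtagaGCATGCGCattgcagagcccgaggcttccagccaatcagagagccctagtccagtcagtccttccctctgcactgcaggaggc
Sdhb: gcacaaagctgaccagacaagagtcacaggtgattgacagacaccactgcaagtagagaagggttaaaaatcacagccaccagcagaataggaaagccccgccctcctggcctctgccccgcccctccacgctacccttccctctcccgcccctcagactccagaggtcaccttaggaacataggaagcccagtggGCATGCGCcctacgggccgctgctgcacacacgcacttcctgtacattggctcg
Cox6a1: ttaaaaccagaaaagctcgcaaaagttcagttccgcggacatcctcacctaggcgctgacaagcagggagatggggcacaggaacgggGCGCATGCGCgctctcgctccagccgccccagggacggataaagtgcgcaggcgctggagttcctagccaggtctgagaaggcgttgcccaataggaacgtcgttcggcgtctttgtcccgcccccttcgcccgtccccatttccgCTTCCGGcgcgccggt
Atp5k: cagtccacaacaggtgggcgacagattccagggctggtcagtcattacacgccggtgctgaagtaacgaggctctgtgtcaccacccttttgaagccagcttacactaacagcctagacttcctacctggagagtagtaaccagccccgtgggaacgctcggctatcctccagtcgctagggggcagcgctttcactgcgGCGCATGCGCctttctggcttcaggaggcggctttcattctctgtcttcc

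Complex I holds 7 nuclear core subunits, which carry the flavin and the iron-sulfur clusters, and many accessory subunits around them. Of the 38 genes, 28 fell (median log2 change -0.87). Among the core genes 5 fell, and Ndufs1 was not called. Ndufv1, whose protein binds NADH and the flavin, read 5.96, 5.85 and 5.72 in KC and 4.66, 4.56 and 4.58 in KCS. The groups were apart, and the fall was 1.24 ± 0.16 (log2, SE, n = 3 per group, adjusted p = 0.000998). Ndufs7, whose protein holds the last iron-sulfur cluster before ubiquinone, read 5.79, 6.22 and 5.78 in KC and 4.67, 4.32 and 4.55 in KCS, and fell by 1.42 ± 0.21 (adjusted p = 0.00148). Falls of Ndufs3 (1.01 ± 0.16), Ndufv2 (0.86 ± 0.17) and Ndufs8 (0.58 ± 0.16) were smaller; that of Ndufs8 lost its call in 4 of the 6 fits that left out 1 array.

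Ndufs1 encodes the largest core subunit, which carries electrons from the flavin towards Ndufs7. It read 3.34, 3.48 and 3.38 in KC and 3.43, 3.54 and 3.52 in KCS. These groups overlapped, and the difference was 0.10 ± 0.16 (adjusted p = 0.622). The gap between core partners could be read within each array, where no shift of the whole array changes it. Ndufv1 exceeded Ndufs1 by 2.61, 2.37 and 2.34 in KC and by 1.23, 1.02 and 1.06 in KCS, a change of -1.34, and of -1.29 with normexp correction. Quantile normalization is not a shift of the whole array. With it Ndufv1 changed by -0.89 and Ndufs1 by 0.14, which lie closer together. This pair was picked for its difference, so the change is a description with no test, and the 2 signals say nothing of which mRNA is more abundant.

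The largest falls of complex I were in accessory genes of the membrane arm. Ndufb10 read 7.31, 7.04 and 6.67 in KC and 5.28, 4.89 and 5.07 in KCS, a fall of 1.92 ± 0.23 (adjusted p = 0.000702), or 3.79-fold. Ndufb9 fell by 1.81 ± 0.18, from 7.02, 6.83 and 6.71 to 4.99, 4.98 and 5.16, and Ndufb11 by 1.54 ± 0.18, from 7.27, 7.07 and 6.91 to 5.55, 5.44 and 5.63. In all 3 genes the lowest KC sample stood more than 1 log2 unit above the highest KCS sample. By name family, 9 of 10 Ndufb genes fell (median -0.95), 3 of 3 Ndufv (-1.05), 5 of 8 Ndufs (-0.77), 10 of 15 Ndufa (-0.71) and 1 of 2 Ndufc (-0.42). Of the 26 accessory genes of complex I beyond these 3 and the Ndufa4 genes, 19 fell, by 0.53 (Ndufb6) to 1.50 (Ndufs6), and in each of the 19 the groups were apart. Ndufs6 holds a zinc ion next to the iron-sulfur clusters and read 7.38, 7.22 and 7.10 in KC and 5.72, 5.60 and 5.88 in KCS (adjusted p = 0.000671). Ndufa6, whose promoter is printed above, went from 7.0, 7.04 and 6.62 to 5.69, 5.46 and 5.56, a fall of 1.32 ± 0.19, and Ndufa9, a subunit beside the ubiquinone site, fell by 0.67 ± 0.16. The 7 not called lay between -0.71 and 0.05, and 3 of them (Ndufs4, Ndufa7 and Ndufa11) had KCS samples all below KC. Ndufb3 was the Ndufb gene not called, at -0.24 ± 0.19, and Ndufc2, at 0.05 ± 0.17, overlapped between groups. Ndufab1, the mitochondrial acyl carrier protein that also serves lipoic acid synthesis, missed the threshold at -0.71 ± 0.26 (adjusted p = 0.0546).

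**Figure D3:**
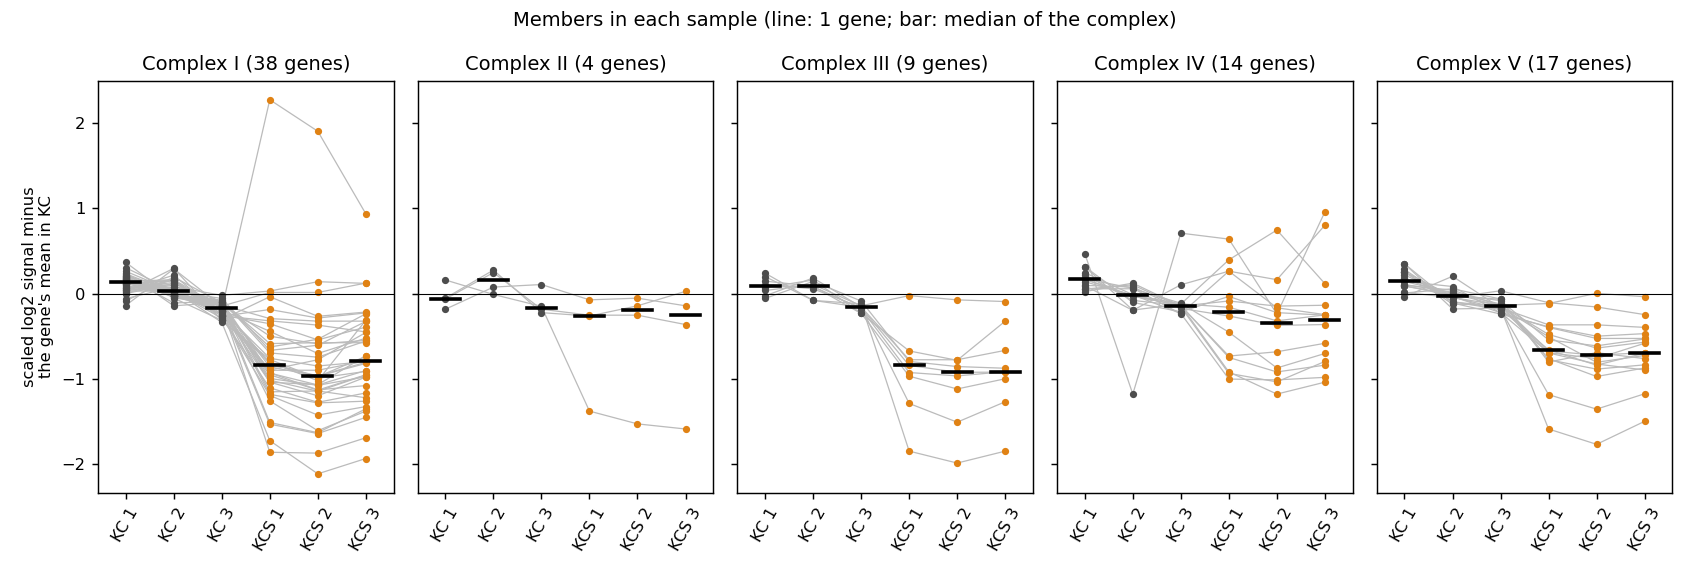
Scaled log2 signal of each tested subunit gene minus its own mean in KC (y axis) in each of the 6 samples (x axis), by complex; a thin line joins the values of 1 gene, KC points are grey and KCS points orange, and bars are medians over the genes of a complex. In complexes I, III and V most lines drop in all 3 KCS samples, in complex II 1 line (Sdhb) drops away from the other 3, and in complex I 1 line (Ndufa4l2) climbs.

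Ndufa4 and Ndufa4l2 moved apart. Ndufa4 was first assigned to complex I and its protein was later found with complex IV, and Ndufa4l2 is a related gene known to be induced in low oxygen and to lower complex I activity. Ndufa4 read 4.88, 4.66 and 4.40 in KC and 3.75, 3.87 and 4.19 in KCS, and fell by 0.71 ± 0.21 (adjusted p = 0.0266). Ndufa4l2 read 0.43, 0.18 and 0.03 in KC and 2.49, 2.12 and 1.15 in KCS, and rose by 1.71 ± 0.36 (adjusted p = 0.00677), or 3.27-fold. KCS replicate 3 had the smallest rise, still above every KC sample. Within arrays, Ndufa4l2 minus Ndufa4 went from -4.44 ± 0.05 in KC to -2.02 ± 0.92 in KCS (SD, n = 3), a change of 2.42, with 3.19 on the first slide and 2.04 on the second, and of 1.60 with normexp.

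Ndufa4l2 is also known from pericytes, the cells that wrap small vessels, so their markers are given beside it. Of 7 tested smooth muscle and pericyte genes, 5 rose and 1 fell, against 25.9% and 34.4% of all features. The gene that fell was Mcam, at 7.15, 6.46 and 6.28 in KC and 5.91, 5.30 and 4.95 in KCS, a fall of 1.24 ± 0.34 (adjusted p = 0.0188). The pericyte genes Cspg4 and Rgs5 read 2.71, 2.72 and 1.74 and 3.94, 3.44 and 2.49 in KCS, against -0.81, -0.55 and -0.90 and 1.40, 1.44 and 1.64 in KC. KCS replicate 3 was the lowest KCS sample for Ndufa4l2, Cspg4, Rgs5 and Mcam. The list's summed scaled signal was 6.47 to 7.30 (log2) in KC and 6.90 to 7.13 in KCS. In KC this sum was mostly that of Mcam, the gene that fell, so it does not follow the genes that rose. No KC array had Cnn1 above background, so it entered the test only through KCS. The part of such cells in the Ndufa4l2 value was not tested. In bulk RNA, fewer cells of a type and less RNA per cell cannot be told apart, which touches each result here.

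Complex II, succinate dehydrogenase, is built from 4 subunits, all nuclear, and only 1 of its genes fell. Sdhb, whose protein holds the 3 iron-sulfur clusters, read 7.10, 6.93 and 6.79 in KC and 5.56, 5.41 and 5.35 in KCS. Its fall of 1.50 ± 0.17 (adjusted p = 0.000632), or 2.82-fold, separated the groups by more than 1 log2 unit. Sdha, the flavin subunit that binds succinate, read 4.31, 4.62 and 4.19 in KC and 4.12, 4.12 and 4.01 in KCS (difference -0.29 ± 0.19, adjusted p = 0.219). The membrane anchors overlapped between groups: Sdhc differed by -0.13 ± 0.20 and Sdhd by -0.09 ± 0.17. Within arrays, Sdhb minus Sdha was 2.79, 2.31 and 2.61 in KC and 1.43, 1.30 and 1.34 in KCS, a change of -1.21, and the change against Sdhc was -1.37 and against Sdhd -1.41. With normexp these changes were -1.11, -1.21 and -1.31. With quantile normalization the 4 genes lay closer together, with Sdhb at -0.80, Sdha at -0.16, Sdhc at -0.11 and Sdhd at 0.10. The other probe of Sdhb differed by -0.89 and that of Sdha by -0.05, so the size of the gap depends on the probe used. These pairs too were chosen for their difference, so they carry no test.

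**Figure D4:**
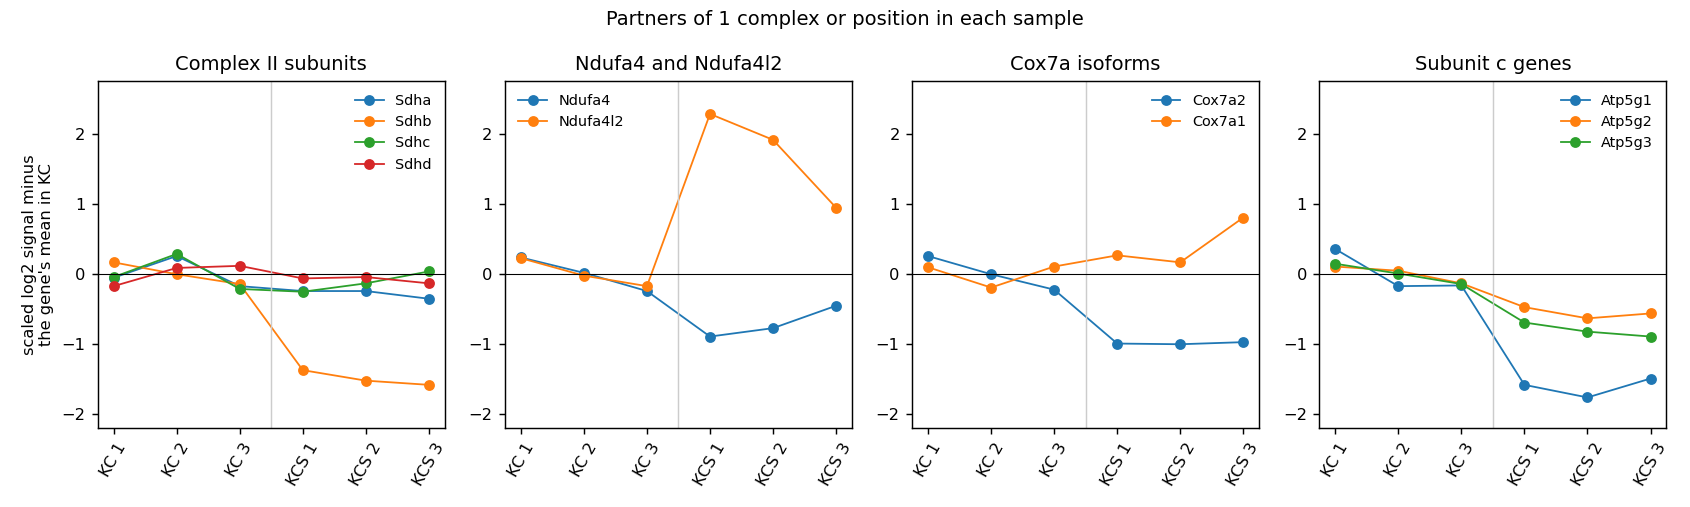
Scaled log2 signal minus the gene's own mean in KC (y axis) in each sample (x axis; the grey line parts KC from KCS) for the 4 complex II genes, Ndufa4 and Ndufa4l2, the Cox7a isoforms and the 3 genes of subunit c; lines join values of 1 gene and imply no order of samples. Sdhb drops by 1.50 while Sdha, Sdhc and Sdhd differ by -0.29, -0.13 and -0.09, Ndufa4l2 climbs while Ndufa4 drops, and Atp5g1 drops further than Atp5g2 and Atp5g3.

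Complex III passes electrons from ubiquinol to cytochrome c, and 8 of its 9 genes fell, with a median of -0.90. The 4 core genes lay close together. Uqcrfs1, the Rieske iron-sulfur protein, fell by 0.85 ± 0.16, Cyc1, cytochrome c1, by 0.93 ± 0.17, and the core proteins Uqcrc1 and Uqcrc2 by 0.90 ± 0.17 and 0.74 ± 0.17. Cyc1 read 4.90, 4.89 and 4.63 in KC and 3.88, 3.84 and 3.89 in KCS (adjusted p = 0.00344), with no overlap. Among the small subunits the range was wider. Uqcrq read 8.40, 8.12 and 8.08 in KC and 6.35, 6.21 and 6.35 in KCS, and its fall of 1.90 ± 0.18 (adjusted p = 0.000293), or 3.73-fold, had the smallest adjusted p of all 82 genes. Uqcr11 fell by 1.36 ± 0.19, Uqcrb, which touches the ubiquinone sites, by 0.60 ± 0.21 (adjusted p = 0.0457, or 0.0545 with the slide as a block), and Uqcrh, the hinge protein beside cytochrome c1, by 1.03 ± 0.18. Uqcr10 was the exception: it read 5.73, 5.80 and 5.55 in KC and 5.67, 5.62 and 5.60 in KCS (-0.06 ± 0.16, adjusted p = 0.769). Uqcrq exceeded Uqcr10 by 2.68, 2.33 and 2.54 in KC and by 0.68, 0.59 and 0.75 in KCS, a change of -1.84 on the first scale and -1.83 with normexp. With quantile normalization both genes lay closer together, Uqcrq at -0.76 and Uqcr10 at 0.46. This pair joins the largest fall of the complex to the gene not called, so the change carries no test. The second probe of Uqcr10 differed by -0.32.

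Complex IV, cytochrome c oxidase, takes its catalytic core from mitochondrial DNA, and its nuclear genes surround that core. Of 14 tested genes, 6 fell and 8 were not called, with a median of -0.29. Among those not called, the isoforms Cox7a1, Cox6b2 and Cox6a2 had positive differences of 0.41 ± 0.23, 0.42 ± 0.24 and 0.45 ± 0.57. Cox4i1, the main form of subunit 4, read 7.40, 7.20 and 7.09 in KC and 6.48, 6.31 and 6.39 in KCS, a fall of 0.83 ± 0.17 (adjusted p = 0.00608). Cox5a, which binds beside it, read 6.43, 6.53 and 6.26 in KC and 6.32, 6.26 and 6.27 in KCS (-0.12 ± 0.17, adjusted p = 0.555). Cox4i1 separated the groups, and Cox5a did not. The largest falls were those of Cox7b (1.05 ± 0.18), Cox7a2 (1.0 ± 0.19) and Cox6a1 (0.93 ± 0.17). Cox7c fell by 0.66 ± 0.17, while Cox6c (-0.17 ± 0.21) and Cox6b1 (-0.24 ± 0.17) were not called. Cox8a, the common form of subunit 8, overlapped between groups at -0.05 ± 0.22. Under quantile normalization Cox6a1 and Cox4i1 changed sign, to 0.78 and 0.15, and the median of the complex was 0.39.

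Several complex IV subunits have a second gene used in other tissues, and 9 pairs of alternative genes were compared within arrays, with p-values adjusted over the 9. With 3 samples against 3, the smallest p an exact two-sided permutation test can give is 0.1, so no pair could pass, and the adjusted p was 0.129 for the 7 pairs with groups apart and 0.2 for the others. Cox7a1, the form of heart and skeletal muscle, was higher relative to Cox7a2 in every KCS array than in any KC array: the difference was -7.11, -7.13 and -6.62 in KC and -5.69, -5.78 and -5.17 in KCS, a change of 1.41. With normexp this change was 0.19. Cox7a2l, which helps tie complex III to complex IV, changed by 0.67 relative to Cox7a2, and by 0.68 with normexp. Cox6b2, known from testis, changed by 0.67 relative to Cox6b1 but by -0.04 with normexp. The other pairs overlapped between groups: Cox4i2, a form linked to low oxygen and lung, changed by 0.15 relative to Cox4i1, and Cox6a2, the muscle form, by 1.38 relative to Cox6a1, both with the opposite sign under normexp (-0.41 and -0.80). Only 2 of 3 KC arrays had Cox6a2 above background, and Cox4i2 itself fell by 0.68 ± 0.19.

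Markers of striated muscle and brown fat, tissues where the second forms are common, are given for comparison. Of 6 tested striated muscle genes 4 rose and 1 fell (all features 25.9% and 34.4%). Their summed scaled signal was -0.83 to 0.21 (log2) in KC and 2.10 to 2.46 in KCS. No KC array had Myl1, Tnnt3, Myh6 or Tnnt2 above background, and Ckm and Myh4 were untested. Of 4 tested brown fat genes 3 rose and 1 fell, with sums of 1.47 to 2.12 in KC and 0.84 to 1.78 in KCS. No KC array had Ucp1, Cidea or Dio2 above background. Genes above background on no KC array entered the test only through KCS. The counts of rises in these lists therefore depend on the filter and carry no weight on their own. The part of such cells in the isoform values was not tested.

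Complex V has a catalytic head, a rotating ring, a peripheral stalk and small membrane subunits. Of its 17 genes, 12 fell and 5 were not called, with a median of -0.68. All 3 ring genes fell, as did 3 of 5 head genes, 3 of 4 stalk genes and 3 of 5 small membrane genes, with medians of -0.81, -0.68, -0.65 and -0.67. The head pairs subunits alpha and beta, encoded by Atp5a1 and Atp5b. Atp5b read 7.69, 7.57 and 7.53 in KC and 6.82, 6.71 and 6.76 in KCS, and fell by 0.84 ± 0.16 (adjusted p = 0.00442). Atp5a1 read 6.62, 6.56 and 6.64 in KC and 6.50, 6.45 and 6.36 in KCS, a difference of -0.17 ± 0.16 (adjusted p = 0.383). Both genes had groups apart, but Atp5b minus Atp5a1 narrowed from 1.08, 1.02 and 0.89 to 0.32, 0.26 and 0.41, a change of -0.67, or -0.64 with normexp. With quantile normalization both genes lay closer together, Atp5b at 0.33 and Atp5a1 at 0.74. The change of this pair is a description with no test. The other Atp5b probes differed by -0.24 and -0.58 and the other Atp5a1 probe by -0.20, so its size depends on the probe used. Atp5o, the stalk subunit that meets the head, fell by 1.24 ± 0.20, Atp5c1, the central shaft, by 0.75 ± 0.16, and Atp5k, subunit e, by 0.87 ± 0.19. Atp5d missed the threshold at -0.49 ± 0.18 (adjusted p = 0.0545, or 0.0482 with the slide as a block), and Atp5e, the smallest head subunit, fell by 0.68 ± 0.20. Among stalk and small membrane genes, Atp5h, Atp5l, Atp5j2 and Atp5j fell by 0.57 to 0.73. Atp5mpl, Atp5pb and Atp5md were not called, at -0.45 ± 0.21, -0.38 ± 0.18 and -0.05 ± 0.17, and Atp5md alone of the 17 genes overlapped between groups.

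The ring is made of subunit c, and 3 genes encode the same mature protein with different import sequences. Atp5g1, known as the regulated gene of the 3, read 7.26, 6.73 and 6.74 in KC and 5.32, 5.14 and 5.41 in KCS. It fell by 1.62 ± 0.21 (adjusted p = 0.00101), or 3.08-fold, with more than 1 log2 unit between the groups. Atp5g3 fell by 0.81 ± 0.17 and Atp5g2 by 0.57 ± 0.17. Within arrays Atp5g2 minus Atp5g1 was -0.14, 0.33 and 0.14 in KC and 1.22, 1.24 and 1.04 in KCS, a change of 1.06, and Atp5g3 minus Atp5g1 changed by 0.82. Atp5g3 minus Atp5g2 changed by -0.24. Groups were apart in all 3 pairs (exact permutation p = 0.1 each, adjusted p = 0.129), and under normexp the changes were 1.09, 0.86 and -0.23. These ring pairs thus kept their values on both background corrections, unlike the Cox7a1, Cox6b2, Cox6a2 and Cox4i2 pairs. With all probes of a gene averaged, Atp5g2 minus Atp5g1 changed by 0.79 and Atp5g3 minus Atp5g1 by 0.55. The genes of those Cox pairs had 1 probe each, so averaging could not change their values.

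Of the 82 tested genes 20 had several probes, and in 3 of them a second probe had the opposite sign: Ndufb8 (-0.89 with a second probe at 0.14), Atp5h (-0.73, with others at -0.76 and 0.17) and Atp5md (-0.05 and 0.05). Of the 13 genes called lower that had several probes, 7 had at least 1 probe not called lower: Ndufa3, Ndufa10, Ndufb5, Ndufb8, Uqcrb, Atp5b and Atp5h. Second probes of Sdhb (-0.89), Atp5g1 (-1.09) and Ndufv1 (-0.82) were called lower too, with smaller falls than the probes used. With all probes of a gene averaged, 50 genes were lower. Of the 55 genes called lower, 40 kept the call whichever array was left out. Leaving out KC replicate 1, 2 or 3 gave 45, 49 and 56 genes lower, and leaving out KCS replicate 1, 2 or 3 gave 47, 40 and 50. The 15 that lost the call in at least 1 such fit, Ndufa3, Ndufa4, Ndufa9, Ndufa10, Ndufb6, Ndufb8, Ndufs8, Uqcrb, Cox4i2, Cox7c, Atp5e, Atp5g2, Atp5h, Atp5j and Atp5j2, had falls of 0.53 to 0.89. Genes with more signal tended to have more negative changes: across the 82 genes, which share the 6 arrays and are not independent, Pearson's r between mean scaled signal and log2 fold change was -0.56 and Spearman's rho -0.47. The 2 slides, which carried replicate 1 and replicates 2 and 3, gave medians of -0.82 and -0.70 over the 82 genes, against -0.15 and -0.21 over all features.

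Genes that build or feed the chain were read from lists chosen by function. Of the assembly factors, those that fell were 5 of 14 for complex I, 2 of 4 for complex II, 2 of 5 for complex III (1 rose), 5 of 23 for complex IV (1 rose) and 1 of 4 for complex V. Timmdc1, a complex I membrane arm factor, read 4.97, 4.57 and 4.66 in KC and 2.51, 2.0 and 2.15 in KCS, and fell by 2.51 ± 0.22 (adjusted p = 0.000236), while its other probe differed by -0.37. Ecsit, of the same assembly complex, fell by 1.66 ± 0.17, and Coa3, a factor for complex IV, by 1.87 ± 0.22. Of the complex III factors Bcs1l, which inserts the Rieske protein, fell by 1.28 ± 0.27, and Ttc19 rose by 0.95 ± 0.25. Cox20, a chaperone for complex IV, rose by 0.85 ± 0.18.

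Among electron carriers and coenzyme Q synthesis genes 8 of 15 fell and 7 were not called. Coq8a, a kinase-like protein of coenzyme Q synthesis, read 2.32, 1.12 and 2.25 in KC and -1.92, -2.01 and -2.61 in KCS, and fell by 4.08 ± 0.38 (adjusted p = 0.000304). Coq9 fell by 1.77 ± 0.18 and Etfb, an electron carrier of fatty acid oxidation, by 1.29 ± 0.17, while cytochrome c itself, Cycs, differed by -0.14 ± 0.19. In the tricarboxylic acid cycle list 6 of 18 fell, led by Idh2 at 1.67 ± 0.17. That list also holds the pyruvate dehydrogenase genes Pdha1, Pdhb, Dlat and Pdhx, and Pdhb (-0.45) was among those that fell. Among outer membrane and import genes 6 of 15 fell, led by the chaperone Hspa9 at 1.14 ± 0.17. These shares lie between 21.7% and 53.3%, on both sides of the 34.4% of all features.

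Regulators of mitochondrial genes did not move as one. Ppargc1a, the coactivator that drives mitochondrial gene programs, read 0.44, 1.40 and 0.51 in KC and -4.23, -4.03 and -2.34 in KCS. Its fall of 4.32 ± 0.55 (adjusted p = 0.00089), or 19.9-fold, stayed a fall under spike-in scaling (-1.53) and normexp (-2.68). Tfb1m, a methyltransferase of mitochondrial ribosomal RNA, fell by 2.31 ± 0.36, and Pprc1, a relative of Ppargc1a, by 0.98 ± 0.17, with -0.19 on its other probe. Gabpa, which binds the GABPA letters above, rose by 0.66 ± 0.17 on the probe used and differed by 0.24 and -0.07 on its other probes. Nrf1 (0.03 ± 0.27, with -0.34 and 0.29 on its other probes), Yy1 (0.20 ± 0.18) and Esrra (0.36 ± 0.15) were not called. In all, 6 of 15 fell (40.0%, near the 34.4% of all features) and 1 rose, against 25.9% of all features.

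**Figure D5:**
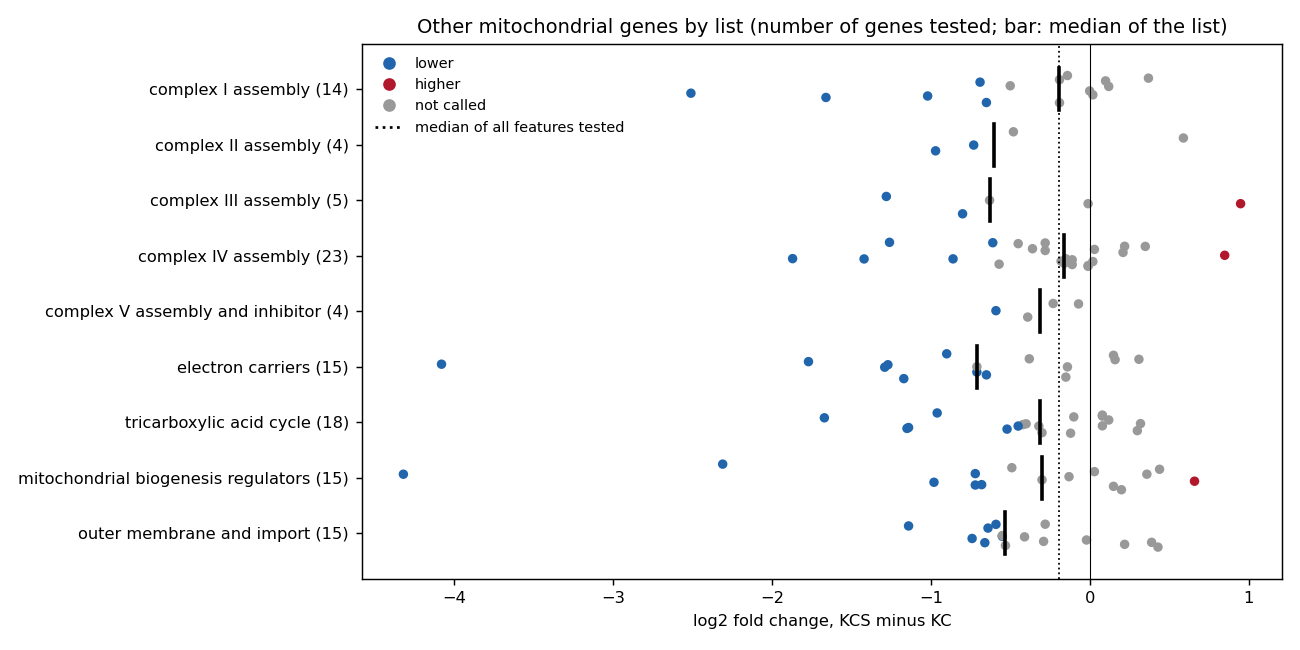
Log2 fold change (KCS minus KC, x axis) of other mitochondrial genes by list (y axis, number tested in brackets), 1 point a gene, coloured by call, with a bar at each list's median and a dotted line at the median of all features, -0.19. Most points lie within 1 log2 unit of 0, while Coq8a at -4.08 and Ppargc1a at -4.32 stand far left.

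The samples' cell makeup, as far as markers show it, differed between the groups. All 15 tested acinar enzyme genes fell, and their summed scaled signal was 15.42 to 15.66 (log2) in KC and 2.0, 4.36 and 11.50 in KCS, so that in 2 of the 3 KCS samples the defining genes of the labelled cell type were more than 10 log2 units below KC. All 10 fibroblast genes rose, with sums of 7.66 to 8.09 in KC and 10.12 to 10.42 in KCS. All 10 macrophage genes rose too, with sums of 4.61 to 5.27 in KC and 8.44 to 8.89 in KCS. No KC array had Fcgr1 above background, so it entered the test only through KCS. Against 25.9% of all features that rose and 34.4% that fell, 7 of 8 endothelial and 3 of 6 duct genes rose and 7 of 8 islet genes fell. The part of this in the subunit values was not tested. KCS replicate 3, with the most acinar signal of its group, had a median of 5.05 over the 82 subunit genes, against 4.97 and 4.91 in replicates 1 and 2 and 5.54 to 5.89 in KC. Setdb1 was read by 1 probe, at -0.91, -1.05 and -0.32 in KC and -0.28, -0.44 and -0.55 in KCS (0.33 ± 0.24, adjusted p = 0.27). Whether that probe lies in the floxed part is not given in the sources used here, so it does not check the labels.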

How the data were processed

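RNA of 6 samples, 3 KC and 3 KCS by the labels' genotypes, was amplified, labelled with Cy3 and hybridised to 1 array each, per the labels' protocols. The deposited scanner files, made with Agilent Feature Extraction 12.0.3.1 per the submitters' processing notes and the file headers, hold the authors' processed signal, an intensity already corrected for background. A deposited value table in log2 holds the authors' values, which matched the scanner values scaled to the 75th percentile and centred per probe on the median (r of at least 0.999999 over 36110 probes), with column medians of -0.01, 0.05 and 0.10 in KC replicates 1 to 3 and -0.05, -0.03 and -0.04 in KCS replicates 1 to 3.

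From the processed signal, log2 values minus each array's 75th percentile over non-control probes were computed, with outlier spots (88 to 140 an array) left out and spots of a probe averaged. Saturation flags were absent. The filter kept probes that the program called well above background on 3 arrays or more of 6, and the probe with the highest mean stood for a gene. Names came from RefSeq (GRCm38.p6) through accessions without versions, which named 33767 of 56605 probes. The files' own build differs, so the only coordinates given are those of RefSeq promoters. KCS was set against KC with limma 3.58.1 (lmFit and eBayes, no covariates, two-sided) in R 4.3.3, with Benjamini-Hochberg adjustment over 27102 features and a threshold of 0.05. Errors marked ± with a change are standard errors of that fit. Pairs of genes were compared within arrays with an exact permutation test.

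The alternatives were quantile normalization, median centring, scaling to spike-in controls, normexp with an offset of 50, the value table, other filters and probe rules, outlier spots kept, trend and robust settings, blocks for replicate and slide, the second slide alone, and leaving out each array. Normexp was planned on mean signals but run on median signals, the column the files hold. With this number of arrays precision is limited, and the spread between arrays, not counting error, sets it. Chosen by rule for description were the genes of core subunits, the 3 largest called changes in each direction per complex and the isoform pairs, and up to 4 genes per list with the smallest p. For many of them only the change and its standard error are given, without the value in each sample. Other genes were named after their values were seen. The subunit genes and all lists were chosen with earlier results of these data known, and the counts without KCS replicate 3 in lists and pair values within slides were added after seeing the data. The values of 1 subunit gene and 1 allele's name are not reported here; the gene stays in all counts and medians.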

Additional observations from a re-analysis of the deposited data

How the results depend on the processing

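On the first scale 55 genes were lower, and of the alternatives that kept this scale all left between 39 (adjusted p below 0.01) and 63 (probes, when each was tested on its own) lower and 1 higher. Without 1 array in turn, 40 to 56 were lower and 1 was higher, and 40 of the 55 were called in all 6 such fits; all features called numbered 13401 to 15281, against 16349. Across these fits the medians ranged from -0.95 to -0.77 in complex I, -0.31 to -0.11 in complex II, -0.98 to -0.87 in complex III, -0.36 to -0.23 in complex IV and -0.76 to -0.56 in complex V, where the value without KC replicate 1 moved most. Cox8a ranged from -0.21 to 0.05, Sdhc from -0.24 to 0.01 and Cox6a2 from -0.14 to 0.80, each changing sign.

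The scale and the background correction changed the counts most. Lower and higher genes numbered 34 and 7 with quantile normalization, 27 and 3 with median centring, 20 and 17 with normexp, and 0 and 82 with spike-in scaling. Medians of complexes I to V were -0.52, -0.14, -0.67, 0.39 and -0.01 with quantile normalization, -0.51, 0.15, -0.54, 0.07 and -0.33 with median centring, -0.18, 0.42, -0.21, -0.03 and 0.02 with normexp, and 1.93, 2.58, 1.89, 2.50 and 2.11 with spike-in scaling. Without a filter on dim probes 31881 features were called and the median of complex IV, with 3 more genes, was -0.66; averaging all probes of each gene gave -0.57 for complex V. Normexp turned the pairs Cox4i2 minus Cox4i1 (-0.41), Cox6a2 minus Cox6a1 (-0.80) and Cox6b2 minus Cox6b1 (-0.04). The cause of these differences was not tested.

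Single subunit genes chosen by rule for description, where reported, changed sign as follows. With quantile normalization these were Sdhd 0.10, Uqcrh 0.04, Cox4i1 0.15, Cox5a 0.69, Cox6a1 0.78, Cox7a2l 0.61, Cox8a 1.04, Atp5a1 0.74, Atp5b 0.33, Atp5c1 0.06, Atp5e 0.18, Atp5g2 0.41 and Atp5g3 0.07. Median centring turned Sdha 0.07, Sdhc 0.23, Sdhd 0.26, Cox5a 0.23, Cox6b1 0.11, Cox7a2l 0.02, Cox8a 0.30 and Atp5a1 0.18. With normexp they were Ndufs8 0.09, Sdha 0.37, Sdhc 0.47, Sdhd 0.57, Cox5a 0.57, Cox6a2 -0.99, Cox6b1 0.35, Cox7a1 -0.08, Cox7a2l 0.41, Cox8a 0.66, Atp5a1 0.54, Atp5d 0.20, Atp5e 0.01 and Atp5g2 0.15. Under spike-in scaling, where 86.3% of features rise, they were Ndufa4 2.08, Ndufb10 0.87, Ndufb11 1.25, Ndufb9 0.98, Ndufs3 1.78, Ndufs7 1.37, Ndufs8 2.21, Ndufv1 1.55, Ndufv2 1.93, Sdha 2.50, Sdhb 1.29, Sdhc 2.67, Sdhd 2.70, Cyc1 1.86, Uqcr11 1.43, Uqcrc1 1.89, Uqcrc2 2.05, Uqcrfs1 1.94, Uqcrh 1.76, Uqcrq 0.89, Cox4i1 1.96, Cox4i2 2.11, Cox5a 2.67, Cox6a1 1.87, Cox6b1 2.55, Cox7a2 1.79, Cox7a2l 2.46, Cox7b 1.74, Cox8a 2.74, Atp5a1 2.62, Atp5b 1.96, Atp5c1 2.04, Atp5d 2.31, Atp5e 2.11, Atp5g1 1.17, Atp5g2 2.22, Atp5g3 1.98, Atp5k 1.92 and Atp5o 1.55.

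The replicate block, which pairs KC and KCS samples of 1 number, left 50 genes lower and 1 higher and 16449 features called. Same-numbered samples deviated together with correlations of 0.33, 0.04 and 0.14, so the numbers were not taken to pair the samples. The samples numbered 1 also share a slide, and KC replicates 2 and 3 correlated best with the KCS sample of the other number. With the slide as a block 55 were lower, 54 of them among the first 55, since Uqcrb lost its call (0.0545) and Atp5d gained one (0.0482), and on the second slide alone 40 were. Signal over background limited the test of Cox7b2, Cox8b and Cox8c.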
